A study of Bos taurus and Bubalus bubalis with 9 samples.

Results

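Intronic circRNAs are circular RNAs whose back-splice junction joins 2 positions inside an intron of a host gene. They were taken as all entries that the authors' circRNA tables label as type intron. Of the 10701 circRNAs in the table for buffalo, 100 were of this type (0.934%) and 531 of the 18535 in that for cattle (2.86%), which makes 631 of 29236 entries and 619 distinct junctions. The animals were Xinyang buffalo (Bubalus bubalis), labelled as low in intramuscular fat, and Nanyang cattle (Bos taurus), labelled as high. All animals were castrates of 30 months when sampled, fattened from 18 months on, and the species were kept on separate farms. The age at castration was 6 months and that at weaning 3 months. The libraries analysed were 3 of muscle from buffalo and, from cattle, 3 of muscle and 3 of adipose tissue. Muscle was longissimus dorsi and adipose tissue was subcutaneous back fat. Because each species came from its own farm, species and farm cannot be told apart.

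When an intron is spliced out, its first base is joined to the branch point near its end, and the resulting lariat is normally opened by the debranching enzyme DBR1 and degraded. Some lariats escape, lose the tail behind the branch point and persist as circular intronic RNAs. An exonic circRNA is made otherwise, by joining the end of an exon back to the start of the same or an earlier exon. A junction read is a sequencing read across such a join, and RPM is the number of these reads scaled to a common library size. In these tables every RPM value was a whole number of junction reads.

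Buffalo muscle libraries held between 4472 and 6122 junction reads. Those of cattle held between 15440 and 27141 in muscle and between 12042 and 21053 in adipose tissue. Intronic circRNAs received 21, 45 and 24 of these reads in the buffalo libraries, 162, 188 and 203 in muscle of cattle and 142, 154 and 148 in their adipose tissue. All 531 cattle junctions had at least 1 read. Of the 100 buffalo junctions 46 had a read in muscle, and the other 54 were at 0 in all 3 muscle libraries. Depth was low for single junctions. Between 46.2% and 74.1% of the intronic circRNAs detected in a library rested on 1 read, a higher share than among exonic circRNAs (33.4% to 61.5%) in all 9 libraries.

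Some intronic junctions (21.5% in cattle and 11% in buffalo) shared a 5′ end with another and differed from it at the 3′ end. With the strand given in the tables, the 531 cattle junctions had 454 distinct 5′ ends and 531 distinct 3′ ends, so no 3′ end occurred in more than 1 junction. A total of 37 of the 5′ ends were each used by several junctions, which made up 114 junctions and 282 of 997 intronic reads (28.3%). The 3′ ends of such a set spread over a median of 7 bases, and in 31 of the 37 sets over at most 20 bases. Of 93 distinct 5′ ends in buffalo 4 were used by more than 1 junction, 11 junctions in all, and all 100 3′ ends were distinct. By the same count, 105 cattle intronic junctions (19.8%) lay within 20 bases of another with the same 5′ end, and none with the same 3′ end. Of the 16223 exonic circRNAs in cattle, 4 did so with a shared 5′ end and 44 with a shared 3′ end (0.271%). The grouping by 5′ end was chosen after the values were seen.

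The largest such set lay in MBNL1, a regulator of alternative splicing in muscle (minus strand, chr1:116244962-116245454 in UMD3.1). It had 10 junctions that began at the same base and gave circles of 477 to 493 bases. TPM1 on chromosome 10, which encodes a tropomyosin of the thin filament, had 8 junctions of 1231 to 1245 bases from 1 start (minus strand, chr10:47058239-47059483). HNRNPK, which encodes an RNA-binding protein, had 8 junctions of 1182 to 1198 bases (minus strand, chr8:78581240-78582437). TP53INP1, a stress-response gene, had 6 of 517 to 525 bases (plus strand, chr14:71743584-71744108). KSR1, a scaffold of the MAP kinase pathway, had 5 of 3113 to 3118 bases (plus strand, chr19:19612767-19615884). QKI, an RNA-binding protein known to promote the formation of exonic circRNAs, had 5 of 1231 to 1244 bases (plus strand, chr9:100470736-100471979). Wider spreads were the exception. They exceeded 100 bases in 3 sets, which lay in SYNPO2, FHL1 and the unnamed gene ENSBTAG00000026986.

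**Figure D1:**
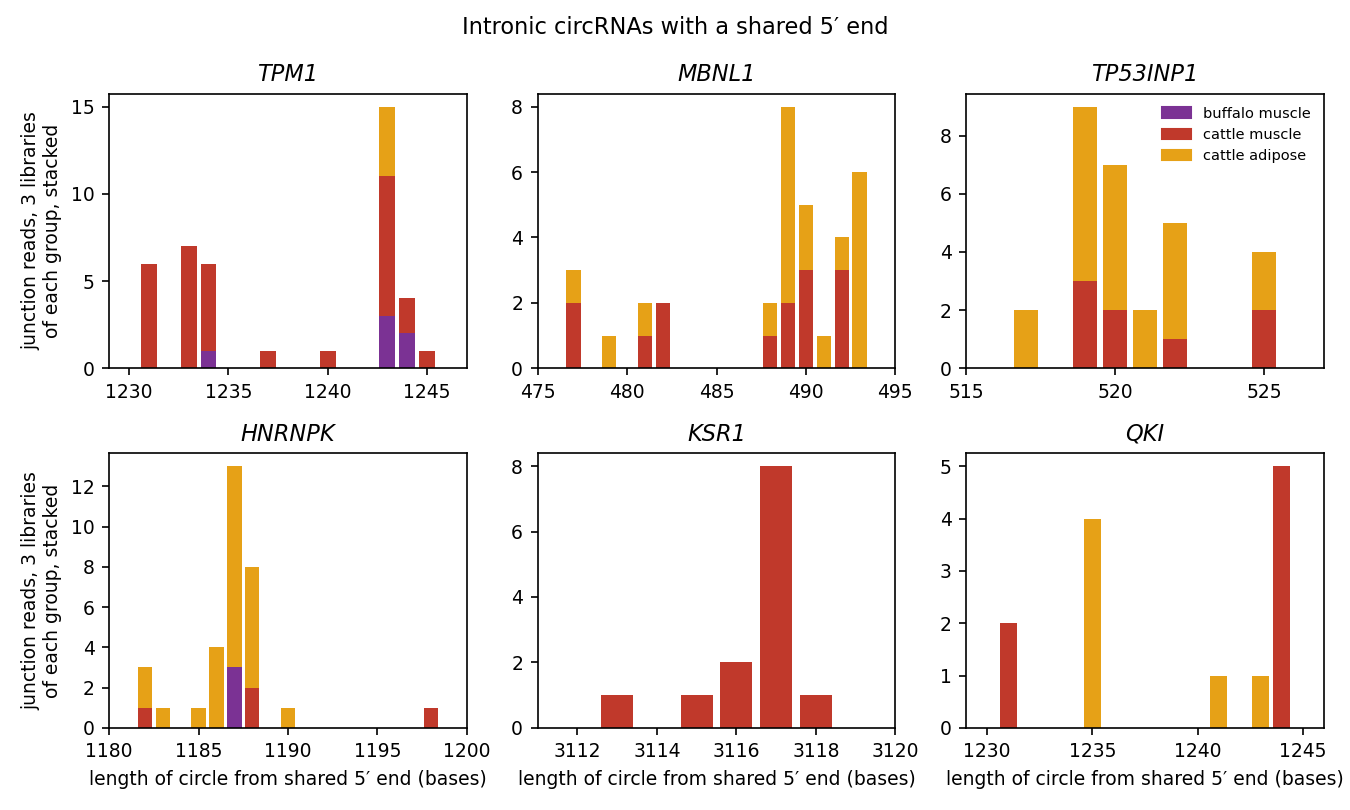
Junction reads (y axis) against the length of the circle in bases (x axis) for the 6 cattle introns with the most reads among those where several junctions share 1 5′ end. Bars are summed over the 3 libraries of a group and stacked by group, and within each gene the lengths differ by 5 to 16 bases.

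Where an intronic 5′ end lay near the 3′ end of an exonic circle of the host, in either table, it was nearly always the base next to it. Exonic circRNAs end at the last base of an exon. Of the 360 cattle intronic junctions whose host had exonic circRNAs in the buffalo or the cattle table, 83 had their 5′ end within 10 bases of the 3′ end of such a circle. In 82 of these 83 it was the next base. In the buffalo table this held for all 12 of 12 such junctions, among 60. These comprised 69 distinct 5′ ends in cattle and 10 in buffalo. The 3′ ends were not placed so exactly. Up to 60 bases before the start of an exonic circle there were 33 cattle 3′ ends, of which 3 lay 1 base before it, 13 lay 2 to 9 bases before it and 17 lay 10 to 60 bases before it. Exonic circles mark only the exon borders that they use, so the remaining junctions could not be placed in this way.

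Most entries labelled intron could not be placed next to an exon in this way, so whether they have this form is not known. A few were seen to have another form. In cattle 8 shared 1 end with a circle of the host that contains exons and 1 shared both ends, and in buffalo the counts were 2 and 1. The junction with both ends shared was the same in both tables and lay in NEB, which encodes the giant thin-filament protein nebulin (plus strand, chr2:44743510-44744212). It had 0, 1 and 1 reads in buffalo muscle, and 0, 5 and 0 in cattle muscle. The rule behind the type labels is not given in the sources used here.

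Intronic circles were short. The median span from one end of the junction to the other was 775.5 bases in the buffalo table (interquartile range 299.75 to 1395.5) and 774 bases in the cattle table (473.5 to 1343.5). Spans of exonic circRNAs, which include the introns between their exons, had medians of 11609 and 10292 bases. Below 1000 bases were 54% of buffalo and 59.5% of cattle intronic circRNAs, against 5.02% and 5.71% of exonic ones. Only 3 buffalo and 4 cattle intronic circles exceeded 10000 bases. In both tables the longest was the same junction in TMEM164, of 29364 bases (plus strand, chrX:62953786-62983149), which shares 1 end with another circle of that gene. The shortest in cattle was 73 bases long and lay in ZC3H14, which encodes a poly(A)-binding protein (chr10:101335857-101335929). The shortest in buffalo was 38 bases long and lay in MYBPC1, which encodes slow myosin-binding protein C (plus strand, chr5:65835494-65835531). It had 1 read in each of the 3 buffalo muscle libraries. In cattle muscle a junction from the same 5′ end enclosed 611 bases instead, with 0, 0 and 3 reads.

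**Figure D2:**
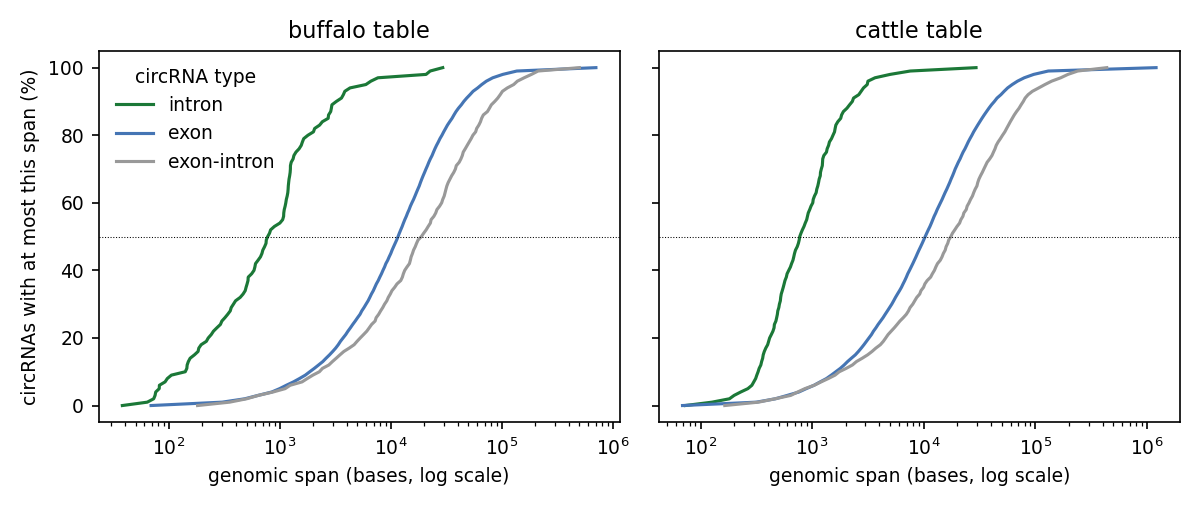
Cumulative share of circRNAs (y axis, percent) against genomic span (x axis, bases, log scale) for the intron, exon and exon-intron types in the buffalo and cattle tables. The dotted line marks the median, which lies at 775.5 and 774 bases for intronic circRNAs and above 10000 bases for exonic ones.

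In buffalo muscle 3 intronic circRNAs had reads in all 3 libraries. The most abundant lay in NEB (plus strand, chr2:44659551-44660629, 1079 bases) at 0.0304, 0.157 and 0.117 RPM, from 2, 10 and 7 reads (mean 0.101 ± 0.0647, SD, n = 3). Its 3′ end coincides with that of circles of type exon-intron in NEB. The second lay in YAF2, which encodes a Polycomb-associated factor (plus strand, chr5:38699568-38699893, 326 bases). It had 0.0608, 0.0628 and 0.0833 RPM, from 4, 4 and 5 reads, and so varied least among libraries of the 2 (mean 0.0690 ± 0.0125, SD, n = 3). The third was the 38-base circle of MYBPC1. Close to it in mean level were the TPM1 junction of 1243 bases, with 1, 0 and 2 reads, and the HNRNPK junction of 1187 bases, with 0, 3 and 0 reads. All 3 reads of HNRNPK came from a single animal. The TPM1 5′ end on chromosome 10 as a whole had 1, 2 and 3 reads and thus was present in every buffalo library.

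In cattle a single intronic junction was detected in all 6 libraries. It lay in RABGGTB, which encodes the beta subunit of the enzyme that prenylates Rab proteins (minus strand, chr3:69320183-69320546, 364 bases). Its level was 0.0794, 0.450 and 0.112 RPM in muscle and 0.0543, 0.0538 and 0.103 RPM in adipose tissue, from 3, 19, 4, 2, 2 and 4 reads. The level in cattle muscle 2 stood above the other 5 values, and the remaining muscle values overlapped with adipose tissue. On the log2(RPM + 1) scale muscle minus adipose tissue was 0.17 ± 0.11 (SE), with adjusted p = 0.529 in limma, and without cattle muscle 2 it was 0.034.

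TPM1 on chromosome 10 was the 5′ end with the most reads. Summed over its 8 junctions it had 9, 6 and 16 reads in cattle muscle (0.238, 0.142 and 0.448 RPM) and 0, 4 and 0 in adipose tissue (0, 0.108 and 0 RPM). The groups did not overlap, which was so for 23.3% of all 1918 circRNAs and intronic 5′ ends tested. The difference was 0.30 ± 0.095 (SE) on the log2(RPM + 1) scale with an adjusted p of 0.167 in limma. With edgeR it was 2.89 on the log2 scale with an adjusted p of 0.0515, so it passed neither test. The muscle libraries, where this 5′ end is high, were enough for the filter on low counts, and the adipose libraries were not. A difference was therefore built in. Of all circRNAs tested in this comparison 3.23% were called by limma. The alternatives run for this sum were edgeR, limma with a replicate block and limma with each library left out. Across these the adjusted p ranged from 0.0515 to 0.428. The junction of 1243 bases had reads in all 3 muscle libraries (1, 1 and 6) and held all adipose reads of this 5′ end (0, 4 and 0), so that its values overlapped between the tissues. The one of 1233 bases was read only in cattle muscle 3 (7 reads) and the one of 1231 bases only in cattle muscle 1 (6 reads). Single junctions of the same intron were therefore spread unevenly over the animals, more so than their sum.

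KSR1 had 1, 5 and 7 reads in cattle muscle and none in the 3 adipose libraries. It had at least 2 reads in only 2 libraries and was not tested. A second gene to which the tables give the symbol TPM1 (ENSBTAG00000033217, chromosome 3) had 8 junctions from 4 5′ ends, with 2, 0 and 10 reads in muscle and 2, 0 and 0 in adipose tissue. Its 5′ end with the most reads (plus strand, chr3:16393120-16394082, 5 junctions) had 2, 0 and 6 of these in muscle and none in adipose tissue. The 2 genes share a symbol but lie on different chromosomes.

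HNRNPK was read more often in adipose tissue. Its main 5′ end had 18, 5 and 2 reads in adipose tissue (0.489, 0.134 and 0.0515 RPM) and 4, 0 and 0 in muscle (0.106, 0 and 0 RPM), and the groups overlapped. The junction of 1187 bases had 6, 2 and 2 reads in adipose tissue and none in muscle, and was the only intronic junction other than RABGGTB present in all 3 adipose libraries. Its difference was -0.12 ± 0.055 (SE) on the log2(RPM + 1) scale with an adjusted p of 0.314 in limma. It was -4.90 on the log2 scale with an adjusted p of 0.067 in edgeR and -4.36 with an unadjusted p of 0.024 in DESeq2, which gave no adjusted p. This junction passed the filter on low counts only through adipose tissue, where it is high, so that a difference was built in. A second 5′ end in HNRNPK, with 3 junctions of 832 to 846 bases (minus strand, chr8:78580122-78580967), had 1, 9 and 0 reads in adipose tissue and none in muscle. Most of these came from 1 junction of 832 bases in cattle adipose 2, with 7 reads.

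MBNL1 had 0, 3 and 11 reads in muscle and 5, 2 and 13 in adipose tissue. TP53INP1 had 3, 2 and 3 reads in muscle and 0, 9 and 12 in adipose tissue. QKI had 0, 0 and 7 against 2, 4 and 0. SFPQ, which encodes a splicing factor, had 0, 0 and 4 against 0, 0 and 8, all from the libraries numbered 3 (plus strand, chr3:111145598-111147886). TMEM164 had 0, 2 and 5 against 2, 0 and 1. In all of these the 2 tissues overlapped.

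**Figure D3:**
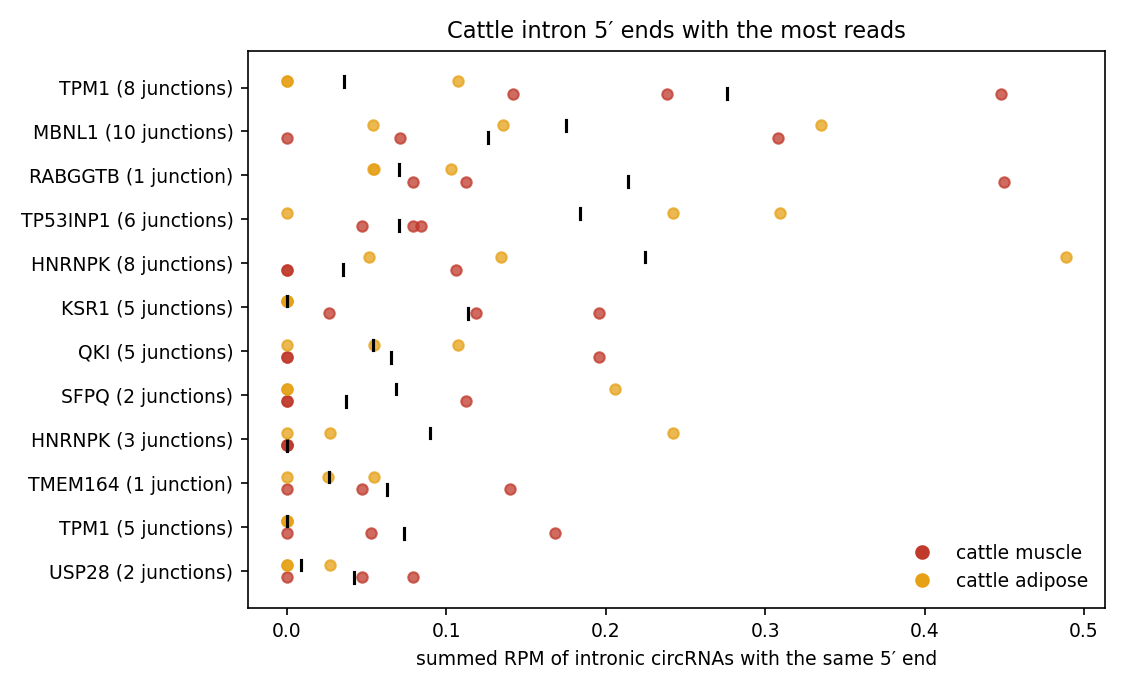
Summed RPM (x axis) of intronic circRNAs with the same 5′ end in single cattle muscle and cattle adipose libraries, for the 12 cattle 5′ ends with the most reads (y axis). Points are libraries and black ticks are means of 3, and 2 of these 12, TPM1 with 8 junctions and KSR1, have no overlap between the tissues, against 18% of all 3459 circRNAs and intronic 5′ ends with at least 6 reads, so this count is near the background.

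No intronic circRNA passed the test between cattle muscle and cattle adipose tissue. Of all circRNAs, 1917 had at least 2 reads in at least 3 of the 6 libraries and were compared with limma on log2(RPM + 1), of which 62 were called at an adjusted p under 0.05 (3.23%), 59 higher in muscle (3.08%) and 3 higher in adipose tissue (0.156%). An unadjusted p under 0.05 was found for 17.6% of all circRNAs tested. Only 6 of the 531 intronic junctions entered this test, and 0 were called, with 0 at an unadjusted p under 0.05. They were those of RABGGTB and HNRNPK given above, that of TMEM164 (0.048 ± 0.061, SE), the MBNL1 junction chr1:116244966-116245454 (-0.046 ± 0.055, SE) and the TP53INP1 junctions chr14:71743584-71744102 (-0.037 ± 0.052) and chr14:71743584-71744103 (-0.035 ± 0.052). Their median was -0.036, against 0.0091 over all circRNAs tested, and it changed sign to 0.029 without cattle adipose 2 and to 0.12 without cattle adipose 3, where 3 and 2 of them were left to test. Single libraries moved the small differences as well. That of TMEM164 went to 0.090 without cattle muscle 1 and to 0.029 without cattle adipose 2. The MBNL1 junction went to -0.083 without cattle adipose 2, and the TP53INP1 junctions to -0.074 and -0.065 without cattle adipose 1, the first of them to -0.019 without cattle muscle 3 and the second to -0.022 without cattle muscle 1 or 2. With edgeR and with DESeq2, 0 were called and 1 had an unadjusted p under 0.05. Over all circRNAs tested, edgeR with TMM normalization called 8.56% and gave such a p for 19.2%, and DESeq2 gave such a p for 14.8%. Among so few intronic junctions these counts are near the background. In DESeq2 only the RABGGTB junction received an adjusted p, so the other intronic junctions could not be called there. After summing by 5′ end, 7 entered the test and 0 were called, with 1 at an unadjusted p under 0.05. Of all circRNAs and intronic 5′ ends in that limma fit, 3.23% were called and 17.5% had such a p. The other junctions did not meet the filter on low counts. With no filter limma tested all 531, of which 0 were called and 1 had an unadjusted p under 0.05. Over all circRNAs these shares were 0.194% and 4.19%.

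As a class, the share of intronic circRNAs in the circRNA pool did not differ between the cattle tissues beyond the spread of the libraries in a test without pairing. They took 1.05%, 0.693% and 0.927% of junction reads in muscle (0.890 ± 0.181, SD, n = 3) and 1.18%, 0.731% and 1.05% in adipose tissue (0.985 ± 0.230). Their counting intervals (95%, exact Clopper-Pearson) reached from 0.597% to 1.22% over the muscle libraries and from 0.621% to 1.39% over the adipose libraries. The difference of -0.0957 percentage points was smaller than either SD (exact two-sided permutation p = 0.6). It turned to 0.00276 without cattle muscle 2 and to 0.00126 without cattle adipose 1. Of the circRNAs detected in a library, 2.34%, 1.63% and 1.97% were intronic in muscle and 2.03%, 1.40% and 1.72% in adipose tissue. This difference was 0.260 points (exact permutation p = 0.5), and 0.163 points with every library thinned to 12042 junction reads. With each library left out it ranged from 0.0814 points (without cattle muscle 1) to 0.434 points (without cattle muscle 2). Summed over all intronic circRNAs, the level was 4.29, 4.45 and 5.68 RPM in muscle and 3.85, 4.14 and 3.81 RPM in adipose tissue. All 3 muscle values exceeded the adipose values, by 0.28 on the log2 scale (exact permutation p = 0.1, the smallest that 3 against 3 allows). Leaving out cattle muscle 3 lowered this difference to 0.15, and leaving out cattle muscle 1 raised it to 0.35. Without the junction with the most reads the groups overlapped (0.23, exact permutation p = 0.2). They also overlapped when only circRNAs with at least 2 reads in 1 library were counted (0.26, exact permutation p = 0.6). Total junction reads differ between these libraries too, and their part in the RPM difference was not tested.

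In buffalo muscle the class was a smaller part of the pool than in cattle muscle by number of junctions. Intronic circRNAs were 0.720%, 1.15% and 0.650% of those detected in buffalo (0.839 ± 0.269, SD, n = 3), below all 3 cattle muscle libraries (1.98 ± 0.352). The difference was -1.14 points, with an exact permutation p of 0.1, the smallest possible. With each library thinned to the 4472 junction reads of the smallest, the buffalo values were 0.704%, 1.10% and 0.650% and the cattle values 1.89%, 1.14% and 1.61%. The groups still did not overlap and the difference was -0.731 points, though the highest buffalo and the lowest cattle value lay close together. By reads the shares were 0.397%, 0.735% and 0.537% in buffalo (0.556 ± 0.170), and the groups overlapped (-0.334 points, exact permutation p = 0.2). Their counting intervals reached from 0.246% to 0.982%. Without the intronic junction with the most reads the difference was -0.417 points and the groups did not overlap (p = 0.1, exact permutation test). Reads of both species were aligned to the cattle genome, and the part of this in the lower buffalo share was not tested.

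**Figure D4:**
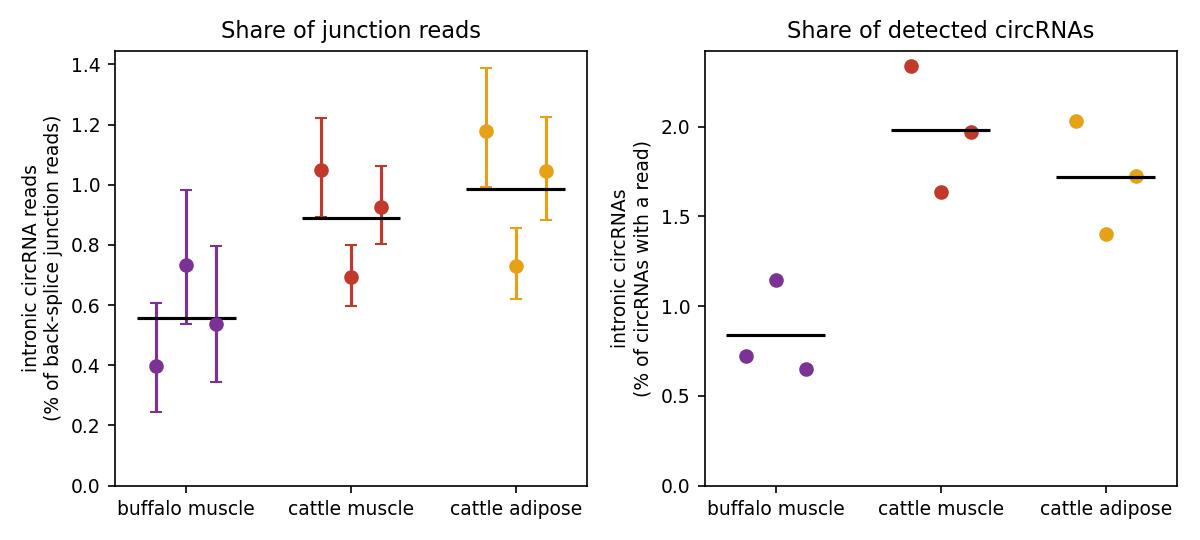
Left, junction reads on intronic circRNAs as a percentage of all junction reads, with 95% exact Clopper-Pearson counting intervals, and right, intronic circRNAs as a percentage of circRNAs with a read. Points are single libraries and lines are means of the 3 libraries of each group, and on the right all 3 buffalo libraries (0.650% to 1.15%) lie below all cattle libraries (1.40% to 2.34%).

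Detection in several libraries was rare. Of the 531 cattle intronic junctions, 489 (92.1%) were seen in 1 library, 29 in 2, 9 in 3, 3 in 4, 0 in 5 and 1 in 6. Among exonic circRNAs 63.8% were seen in 1 library. Since low counts alone lower this number, circRNAs with the same total of reads were set side by side. With 3 reads in all, 89.1% of 46 intronic and 54.6% of 1897 exonic circRNAs had them in a single library. With 5 to 10 reads, the shares were 37.0% of 27 and 9.56% of 2186. Summing junctions by 5′ end lowered the intronic shares to 81.3% and 20%, which left them above those of exonic circRNAs. Junction reads without molecular identifiers may be copies of 1 molecule, and the part of this in these shares was not tested. In buffalo muscle 41 of the 46 detected junctions were seen in 1 library, 2 in 2 and 3 in all 3.

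**Figure D5:**
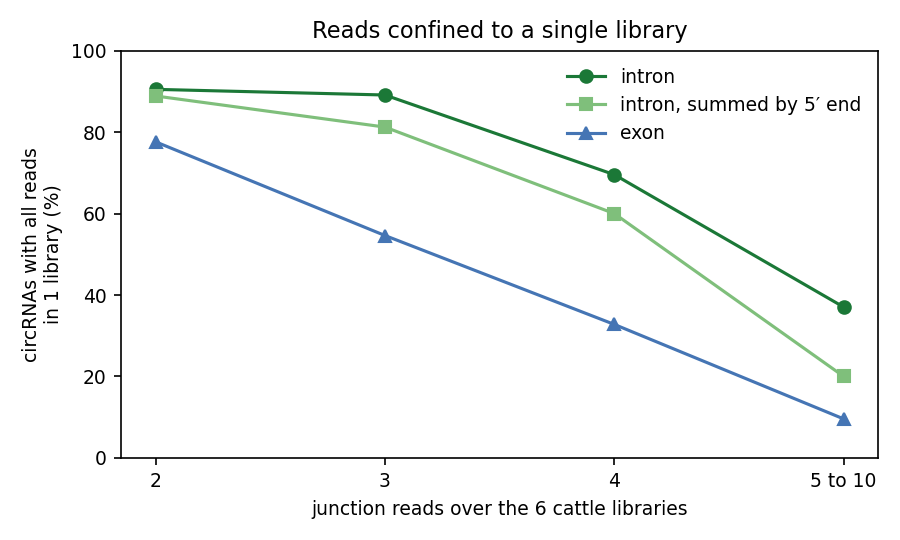
Share of cattle circRNAs with all their reads in 1 library (y axis, percent) against their total reads over the 6 cattle libraries (x axis), for intronic circRNAs, the same summed by 5′ end, and exonic circRNAs. With 5 to 10 reads the shares are 37.0%, 20% and 9.56%.

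By tissue, 283 cattle intronic junctions had reads only in muscle, 223 only in adipose tissue and 25 in both (4.71%). Among exonic circRNAs 26.0% had reads in both. With 92.1% of the intronic junctions in a single library, most of these could appear in only 1 tissue. Grouped by 5′ end, 233 were seen only in muscle, 191 only in adipose tissue and 30 in both.

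The hosts were many, with few junctions each. The 531 cattle junctions came from 400 genes, 350 of which had 1, and the 100 buffalo junctions from 90 genes, 85 of which had 1. Most junctions had the cattle gene ENSBTAG00000026986 on chromosome 2, which has no symbol in the tables, with 21 junctions from 16 different 5′ ends. It had 17, 5 and 14 intronic reads in the muscle libraries and 0 in all adipose libraries. Its 68 exonic circRNAs had 38, 106 and 88 reads in muscle and 0 in adipose tissue. NEB followed with 13 junctions from 10 5′ ends, and with 4, 10 and 12 reads in muscle and 0 in adipose tissue. HNRNPK had 12 junctions, MBNL1 11 and TPM1 on chromosome 10 had 9. These 3 genes differed from the first pair in that their junctions came from only 3, 2 and 2 5′ ends. In buffalo HNRNPK had 5 junctions, TPM1 3, KDR 3, NEB 2 and PCSK5 2. KDR encodes a receptor of vascular endothelial growth factor and PCSK5 a proprotein convertase. The intronic junctions of KDR and PCSK5 had no read in buffalo muscle.

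Many hosts of intronic circles had no circle of type exon listed in the same table, 155 of 400 in cattle and 49 of 90 in buffalo. Some of these have circles of type exon-intron. Of the junctions, 149 in cattle (28.1%) and 36 in buffalo lay in hosts for which neither table lists a circle with exons, and at this depth such circles may have gone undetected. HNRNPK was one of these hosts, with 40 intronic reads over the 6 cattle libraries. TPM1 on chromosome 10 had 36 intronic and 7 exonic reads. The reverse held for MYBPC1 in cattle, with 9 intronic reads from 4 junctions against 1082 exonic reads.

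Genes of the sarcomere and of muscle contraction, a list of 41 of which 24 are named in the circRNA tables, hosted 41 intronic junctions in cattle. The 9 host symbols were MYBPC1, MYH1, MYH7, MYOM3, NEB, PDLIM5, RYR1, TNNT3 and TPM1. They took 13.0%, 13.3% and 20.7% of intronic reads in muscle and 1.41%, 2.60% and 0% in adipose tissue, so the tissues did not overlap. Genes were matched by symbol, so one without a symbol, such as ENSBTAG00000026986, could not enter these shares. All adipose reads of the list were on TPM1, whose product also occurs outside striated muscle. The difference was 14.3 percentage points, and 8.54 points without TPM1. In the same libraries these genes held 7.64%, 6.51% and 6.56% of the reads on exon-containing circRNAs in muscle and between 0.0218% and 0.0257% in adipose tissue. The fast troponin TNNT3 had 1 intronic junction with 3 reads, all in cattle muscle 2. The calcium release channel RYR1 had 1 read, as had the myosin heavy chain MYH1. In buffalo muscle 7 junctions in MYBPC1, NEB and TPM1 took 19.0%, 35.6% and 50% of intronic reads, against 15.5%, 14.9% and 17.3% of exon-containing reads. These intronic shares rest on 4, 16 and 12 reads, of which 2, 10 and 7 were on the NEB junction of 1079 bases. Whether a tissue holds fewer cells of a type or less RNA per cell cannot be told apart in such samples.

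Adipocyte and lipid genes, a list of 28 of which 15 are named in the tables, hosted 4 intronic junctions in cattle and 0 in buffalo. They lay in GPAM, which encodes an enzyme of triglyceride synthesis, ACSL1, which encodes a long-chain acyl-CoA synthetase, and FABP4, the fatty acid-binding protein of adipocytes. The 2 GPAM junctions were read in muscle only, with 1, 4 and 0 reads, and the longer of them enclosed 1761 bases (minus strand, chr26:32975012-32976772). ACSL1 had 1 read, in cattle adipose 2 (minus strand, chr27:14234144-14234990). FABP4 had 3 reads, all in cattle adipose 3 (minus strand, chr14:46837693-46837920, 228 bases). GPAM, ACSL1 and FABP4 were each read in 1 tissue only, on so few reads that no difference between tissues was detectable.

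The labelled tissues were checked against marker genes among the hosts. Of 9 skeletal muscle markers, MYH1, MYH7, NEB, RYR1 and TNNT3 hosted intronic circles, with 7, 14 and 12 reads in cattle muscle and 0 in each adipose library. Of 7 adipocyte markers, 3 of which are named in the circRNA tables, only FABP4 hosted an intronic circle, and ADIPOQ, PLIN1, LEP, LIPE, PPARG and CD36 hosted none. On exon-containing circRNAs the adipocyte markers held 0.146%, 0.112% and 0.167% of reads in cattle adipose tissue and 0%, 0% and 0.0142% in cattle muscle, without overlap. Genes of lariat turnover and branch point recognition were also checked, a list of 12 of which 5 are named in the tables. Only DHX15, a helicase that disassembles the spliceosome, was a host, with 2 junctions and 3 reads in cattle adipose 2. The mRNA of DBR1 was at 6.51 ± 1.21 FPKM (SD, n = 3) in buffalo muscle and that of DHX15 at 32.2 ± 2.48 FPKM. Values in cattle were not analysed here.

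Hosts with an intronic circle in muscle had higher median mRNA levels in buffalo muscle than the other hosts. The 43 hosts of buffalo junctions with a muscle read had median levels of 25, 22.4 and 23.3 FPKM in the 3 libraries. The 47 hosts whose junctions were all at 0 in muscle had 14.8, 15.2 and 16.1 FPKM, and 2228 hosts of exonic circRNAs with a muscle read had 12.2, 11.9 and 11.8 FPKM. The same measure, mRNA of buffalo muscle and not of cattle, was taken for hosts of cattle junctions. The 190 hosts of those read only in muscle had 23.4, 21.5 and 19.4 FPKM, and 180 hosts of those read only in adipose tissue had 13.5, 13.9 and 13.6 FPKM. Hosts are not replicates, so these medians are a description. Levels of single hosts ranged widely. TPM1 on chromosome 10 had 4684 ± 867 FPKM (SD, n = 3) and MBNL1 250 ± 20.9, while YAF2, whose intronic circle ranked second in buffalo, had 7.06 ± 1.34. NEB was listed at 0 in all 3 libraries although its intronic circle was the most read in buffalo, and a listed 0 can be a failed estimate.

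Few intronic junctions recurred between the species. Identical coordinates were found for 12, which is 12% of the buffalo and 2.26% of the cattle intronic junctions. Of exonic circRNAs 4606 were in both tables, 48.0% and 28.4%. Exonic circRNAs also have more reads, so those with equal totals of reads in cattle were set side by side. Of junctions with 2 reads, 2.59% of 116 intronic and 19.8% of 3214 exonic ones were in the buffalo table, and of those with 5 to 10 reads 18.5% of 27 and 46.9% of 2186. The buffalo table lists 100 intronic circRNAs for 531 in cattle, but 9593 exonic ones for 16223. This limits how many could recur, and its part in these shares was not tested. Of 5′ ends 19 were shared, and of host genes 23 (25.6% of buffalo and 5.75% of cattle hosts). Those with the most reads included junctions in NEB (2 junctions), TPM1 on chromosome 10 (3), TPM1 on chromosome 3, HNRNPK, TMEM164 and FGD6, which encodes a guanine nucleotide exchange factor. The junction in FGD6 had no reads in buffalo, 4 in cattle muscle 3 and 1 in cattle adipose 3 (minus strand, chr5:24937304-24937774, 471 bases). The NEB junction of 1079 bases, first in buffalo with 19 reads, had 2 in cattle muscle 3 and 0 elsewhere. Several 5′ ends recurred with different 3′ ends. RBM10, which encodes a splicing regulator, began at the same base of chromosome X in both tables and enclosed 1472 bases in buffalo and 1492 in cattle, and DYSF, which encodes dysferlin of the muscle membrane, 1589 and 1601.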

How the data were processed

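Junction values of 9 libraries came from the buffalo circRNA table (3 of muscle) and the cattle circRNA table (3 of muscle, 3 of adipose tissue), and mRNA values of the 3 buffalo muscle libraries from the buffalo mRNA table. Per the labels, total RNA was taken up with the TruSeq RNA LT kit v2. The authors trimmed reads with Trim Galore, mapped buffalo and cattle reads alike with STAR to UMD3.1, a cattle assembly, and used Cufflinks 2.2.1 and Cuffdiff. The deposited circRNA tables give RPM per back-splice junction, and the deposited mRNA table gives FPKM per transcript, summed here by gene. The circRNA caller, its version and the typing rule are not given in the sources used here, nor is any removal of linear RNA. A further 9 value columns, named for buffalo adipose tissue, match no labelled sample and were not used here. The 54 buffalo intronic junctions without a muscle read stay in the buffalo counts of junctions, spans, hosts and recurrence. The lncRNA table was not used here.

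Every RPM value above 0 was a whole multiple of the value of 1 read (100% within 0.01 reads), which gave the reads and library totals. Shares within a library were compared between groups of 3 by exact two-sided permutation tests over 20 arrangements. All cattle circRNAs with at least 2 reads in at least 3 of 6 libraries were compared with limma 3.58.1 (R 4.3.3) on log2(RPM + 1), a scale that understates changes of low values, calling adjusted p-values (Benjamini-Hochberg) below 0.05. edgeR 4.0.16 and DESeq2 1.42.0 on the recovered reads, a pseudocount of 0.1, other filters, a replicate block and each library left out were alternatives. Levels were not compared between the 2 tables, which may have been normalized separately. Intervals are exact Clopper-Pearson at 95% and cover counting error only. The fits were tested on simulated data, but the outcome is not reported here and no statement rests on it.

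The tables give positions in UMD3.1. Genes carry the symbols of the tables, and 3 buffalo and 40 cattle intronic circRNAs have none. Named junctions were the 5 with the highest mean in each group, those tested between cattle tissues, those in all 3 libraries of a group, up to 10 found in both tables (1 of them is not reported here), the longest and shortest, those of the 5 hosts with most junctions, and up to 5 per gene list. Sets by 5′ end, and other junctions named for them, were chosen after values were seen. The members and lists were chosen with earlier results of these data known. Labels name 3 animals per species, and do not say whether a replicate number marks the same animal in both tissues.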

Additional observations from a re-analysis of the deposited data

How the results depend on the processing

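Single junctions rest on few reads, so a difference between tissues was not detectable for most of them, and 3 libraries a group cannot give an exact p below 0.1. The share of junction reads in cattle muscle minus adipose tissue ranged from -0.223 to 0.00276 percentage points with each library left out, and changed sign without cattle muscle 2 (0.00276) and without cattle adipose 1 (0.00126). The other comparisons of shares and of summed RPM kept their direction under every alternative run. With each library left out, buffalo minus cattle muscle ranged from -0.432 to -0.254 points by reads and from -1.31 to -0.962 by detected circRNAs, and cattle muscle minus adipose tissue from 0.0814 to 0.434 points by detected circRNAs and from 0.15 to 0.35 in log2 summed RPM. Counting only junctions with at least 2 reads made the summed RPM overlap between the tissues (0.26, exact permutation p = 0.6). No intronic circRNA was called under the alternatives that could be run. These tested between 2 and 7 intronic junctions or 5′ ends, and 531 with no filter. Calls over all circRNAs ranged from 16 (1.09%, without cattle muscle 3) to 164 (8.56%, edgeR with TMM normalization), and with no filter were 36 (0.194%). At such shares, 0 calls among so few is near the background. Requiring at least 5 reads in 3 libraries left no intronic circRNA to test. The 5′ end of MBNL1 (-0.063 on the log2(RPM + 1) scale) moved to 0.033 without cattle adipose 3 and to 0.018 without cattle muscle 1 (lowest -0.18), and that of QKI (0.012) to -0.026 without cattle adipose 3 (highest 0.055). The median difference of the intronic circRNAs tested (-0.036) was 0.011 with no filter and 0.012 with sums by 5′ end. The causes were not tested. With a window of 5 bases in place of 20, buffalo junctions near another with the same 5′ end were 6 in place of 11.

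The replicate numbers were not shown to pair the cattle libraries. Deviations of same-numbered libraries from their group means correlated at 0.238, 0.169 and -0.0156, and those of different numbers at -0.219 to 0.0401. The same-numbered adipose library correlated best with cattle muscle 1 and 2, whereas cattle muscle 3 correlated best with cattle adipose 2 (0.0401). With the replicate number as a block, all 3 same-numbered pairs differed in the same direction and exact sign-flip tests gave p = 0.25, the smallest 3 pairs allow, for the share of reads (-0.0957 points), the share of detected circRNAs (0.260 points) and log2 summed RPM (0.28). limma with the replicate block called 86 circRNAs (4.49%) in place of 62 (3.23%), and 0 of the 6 intronic ones tested.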
